A study of Homo sapiens with 5 samples.

Results

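The genes described here encode complement components and complement regulators that epithelial cells can make: the proteases C1R and C1S of the classical pathway, the protease CFB of the alternative pathway, the central component C3, the terminal component C5, the soluble regulator CFI and the membrane regulators CD46, CD55 and CD59. They were chosen by symbol in the authors' deposited table of PC9 cells, and 8 of the 9 have a row among its 27477 genes. CFI has no row there and is not analysed further. PC9 is an established human lung adenocarcinoma line that depends on a mutant EGFR. Messenger RNA of parental PC9 cells (3 libraries) was compared with that of PC9 cells tolerant to gefitinib (2 libraries), an EGFR kinase inhibitor. The tolerant cells were exposed to gefitinib at 50 nM for 6 days, followed by 3 days without it in growth medium, so their RNA was taken after drug-free culture. The labels do not say whether libraries of a group came from separate cultures, so p-values cover only the variation among these libraries, and that variation may be technical.

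Complement is a cascade of blood and tissue fluid proteins that tags and perforates foreign or damaged cells. C1R and C1S are the paired proteases of the first classical complex, CFB supplies the protease of the alternative pathway, and both pathways end in cleavage of C3 and then of C5. The liver makes most of the circulating protein, but airway and lung epithelium also make components. Host cells protect themselves with membrane regulators: CD46 is a cofactor for inactivation of C3b and C4b, CD55 speeds the decay of the convertases, and CD59 blocks assembly of the membrane attack complex. CD55 and CD59 are held in the membrane by a GPI anchor, and CD46 by a transmembrane segment.

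The deposited table gives 1 mean level per gene over all libraries and no values per library. For genes with few reads, the whole reads of each library could be solved from that mean, as described with the processing, and this gave exactly 1 solution for C1R, CFB and C5. The solved libraries are called parental a to c and drug-tolerant a to b, and they could not be matched to the replicate numbers of the labels. They were assigned to groups by the direction in which their reads pulled the deposited fold change, which also fixed the sign of that fold change, so positive values are higher in drug-tolerant cells. Across genes, the correlation of a library's share of the reads with the deposited fold change was -0.42 for parental b and for parental c, 0.37 and 0.41 for the drug-tolerant pair, and only -0.09 for parental a. Parental a was placed by its sign and by the 298 genes with reads in that library alone, of which 298 had a negative deposited fold change. Library depths lay between 14.2 M and 21.4 M counted reads. The parental libraries did not lie together. In protein-coding genes with a mean level under 10, the ratio of reads from long (over 4 kb) to reads from short (under 2 kb) transcripts was 0.958 for parental a. It was 0.605 for parental b, 0.594 for parental c, and 0.988 and 0.866 for the drug-tolerant pair. Parental b and c differed by little more than sampling noise: a chi-square test of their reads gave 1.05 per degree of freedom (p = 0.096) over 1423 genes with a mean under 10 and 1.07 (p = 0.025) over 1657 genes with a mean of 10 to 30. These p-values allow for counting error only. Parental a differed from parental b by 6.40 per degree of freedom in the second range and from drug-tolerant a by 1.93. For drug-tolerant a against b the chi-square test gave 1.10 per degree of freedom both over 1972 genes (p = 0.0010) and over 1876 genes (p = 0.0017) of these ranges, so they too differed by little more than counting error. Ratios between groups are also given with parental b and c counted as 1 sample. Counting the drug-tolerant pair as 1 sample would leave their mean, and so the ratios, as they are, with no SD for that group. Over all 12455 protein-coding genes tested, the Spearman correlation of the deposited log2 fold change with transcript length was 0.54, a description across genes, which are not replicates. The epithelial markers EPCAM, KRT8, KRT18, KRT19 and CDH1 had means between 3778 and 35758 in the authors' deposited table, the lung lineage marker NKX2-1 was at 2.83, and the hepatocyte markers ALB, APOA1 and FGB, the leukocyte markers PTPRC and CD3E and the fibroblast marker DCN had no row. Among the other markers of non-epithelial cells, PECAM1 had a mean level of 1616, CDH5 of 253 and COL1A1 of 162 in the authors' deposited table. ITGAM, VWF, CD14 and PDGFRB lay between 0.353 and 25.9. VWF, CD14 and PDGFRB had no adjusted p, and 0 of the others were called by DESeq2. PECAM1 had a log2 fold change of 0.57 ± 0.26 (SE), with an unadjusted p of 0.028 and an adjusted p of 0.44 (DESeq2).

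Promoter sequence is shown for the members with a match to binding motifs of the factors known to switch on complement genes in inflamed epithelium. The 250 bases before each start in the RefSeq promoter table (GRCh38.p14) were searched on both strands for NF-kB, for the STAT motif GAS (TTCNNNGAA), for the interferon regulatory factor motif IRF and for C/EBP (TTGCNNAA). Matches were present in 9.96%, 6.57%, 3.02% and 9.05% of all 35116 promoter windows in that order. Of the members searched (C1R, CFB, C5, CFI, CD46, CD55 and CD59), CFB, C1R and CD59 held matches. The shares above are per motif and per start, but a member could match any of the 4 motifs before any of its starts. CD59 had 4 starts, C1R 2 and CFB 1. The share of all genes with any match was not worked out, so the number of members with a match is no result about them. C1S and C3 were not searched. Each window below has 30 bases, 5′ to 3′ on the gene's strand, with the match in capitals. CFB held NF-kB, GAS and IRF matches within the 250 bases before its 1 start. C1R held a GAS and a C/EBP match before its internal start. It held another C/EBP match, on the opposite strand, before its upstream start. CD59 held a GAS match. CD59 also held C/EBP matches, before a start inside the gene, that are not shown. A match is a description of the letters and not evidence of binding.
CFB, IRF, chr6:31945945-31945974, plus strand: acttctgcagTTTCTGTTTCcttgactggc
CFB, NF-kB, chr6:31945973-31946002, plus strand: gcagctcagcGGGGCCCTCCcgcttggatg
CFB, GAS, chr6:31945992-31946021, plus strand: ccgcttggatgTTCCGGGAAagtgatgtgg
C1R, GAS, chr12:7091961-7091990, minus strand: agccagtcctaTTCCTGGAAggggagggga
C1R, C/EBP, chr12:7092042-7092071, minus strand: cccagacgctcTTGCTGAAcctgtgggagc
C1R, C/EBP, chr12:7092533-7092562, minus strand: agatcttttgtTTATGCAAatagttcattc
CD59, GAS, chr11:33736589-33736618, minus strand: gccacccggccTTCTCAGAAcctgggccag

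Transcripts of the membrane regulators and of C3 were abundant in these cells, and those of the other components were scarce. Scaled to the library total (RPM) and per kb of the longest protein-coding transcript, the mean level of the authors' deposited table was 89.7 for CD46, 64.8 for C3, 44.6 for CD59 and 26.0 for CD55. On the same scale C1S stood at 2.07, CFB at 0.555, C1R at 0.454 and C5 at 0.208. By mean level, C3 and CD59 each stood above 97.6% of the 15223 genes with an adjusted p, CD46 above 97.1% and CD55 above 82.0%. C1S stood above 32.1% of them, CFB above 16.3%, C1R above 13.0% and C5 above 12.4%. The order is that of means over all 5 libraries. The spread between libraries is not known for C3, CD46, CD59, CD55 and C1S, so differences between neighbours among them were not tested. The ranges over libraries of C1R and CFB, whose transcripts have similar lengths, overlapped. C1S and C1R, whose products act as a pair, differed on this scale (2.07 against 0.454). The annotated body of C1S overlaps EMG1 on the same strand over 9170 bases and LPCAT3 on the opposite strand. On the same strand, C1R overlaps C1RL by 3021 bases, and CFB overlaps C2 by 23 and the clone-named AL645922.1 by 6399. Also on the same strand, C3 overlaps GPR108 by 649 and the clone-named AC008760.2 by 1357. CD46 overlaps the pseudogene CDCA4P4 by 680, and CD59 overlaps the clone-named AL049629.2 by 19458, again on the same strand. Reads of such stretches may be shared if the counting did not separate them.

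**Figure D1:**
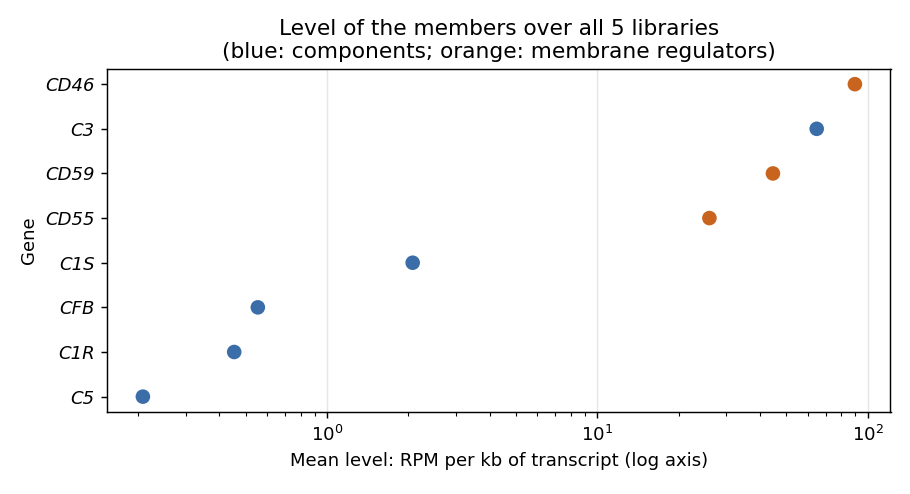
Mean level of the 8 members over all 5 libraries, in RPM per kb of transcript on a log axis, with components in blue and membrane regulators in orange. CD46 (89.7), C3 (64.8), CD59 (44.6) and CD55 (26.0) lie apart from C1S (2.07), CFB (0.555), C1R (0.454) and C5 (0.208).

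None of the 8 members changed between drug-tolerant and parental cells by the test of the authors' deposited table, DESeq2 with an adjusted p under 0.05. That table called 0.263% of the 15223 tested genes higher and 0.289% lower, or 0.552% in either direction, and 0 of 8 does not stand apart from that share. At an unadjusted p under 0.05, 0 of 8 members passed in the authors' deposited table, against 10.8% of all tested genes. Of the 8, 4 had positive and 4 negative log2 fold changes in the authors' deposited table, and the median was 0.0070 against -0.018 over all tested genes.

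The early components had values on both sides of 0. C1R (ENSG00000159403; chromosome 12, 7080199 to 7092607, GRCh38) has a log2 fold change of -0.57 ± 0.40 (SE) in the authors' deposited table, where DESeq2 gave it an adjusted p of 0.53. Its partner C1S (ENSG00000182326; chromosome 12, 6988259 to 7071032) was at 0.06 ± 0.29 there, by the authors' deposited table, and its adjusted p was 0.93. For CFB (ENSG00000243649; chromosome 6, 31945650 to 31952084), the authors' deposited table gives -0.53 ± 0.40 and an adjusted p of 0.54. C1R and CFB thus had the lowest values of the 8, and neither passed the test. C1R overlaps C1RL on the same strand, and whether reads were shared was not tested.

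The central and terminal components had positive values. C3 (ENSG00000125730; chromosome 19, 6677704 to 6730562) had a log2 fold change of 0.33 ± 0.39 (adjusted p 0.68, DESeq2) according to the authors' deposited table, a fold of 1.26 with a 95% interval of 0.742 to 2.14. C5 (ENSG00000106804; chromosome 9, 120952335 to 121050276) had a log2 fold change of 0.19 ± 0.41 (adjusted p 0.83) according to the authors' deposited table, a fold of 1.14 with an interval of 0.657 to 1.99. Both intervals include 1. Here and for the other members, deposited folds and their intervals are on a scale moderated towards 0.

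The membrane regulators did not pass the test either. CD46 (ENSG00000117335; chromosome 1, 207752057 to 207795513) had a log2 fold change of 0.34 ± 0.35 (adjusted p 0.64, DESeq2) according to the authors' deposited table, with a 95% interval of the fold from 0.784 to 2.03. Its neighbour on chromosome 1, CD55 (ENSG00000196352; 207321376 to 207386804), had a log2 fold change of -0.05 ± 0.29 (adjusted p 0.94) according to the authors' deposited table, with an interval from 0.651 to 1.43. CD59 (ENSG00000085063; chromosome 11, 33703010 to 33736491) had a log2 fold change of -0.20 ± 0.27 (adjusted p 0.72) according to the authors' deposited table, with an interval from 0.608 to 1.25. Of the 3, CD59 had the narrowest interval.

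**Figure D2:**
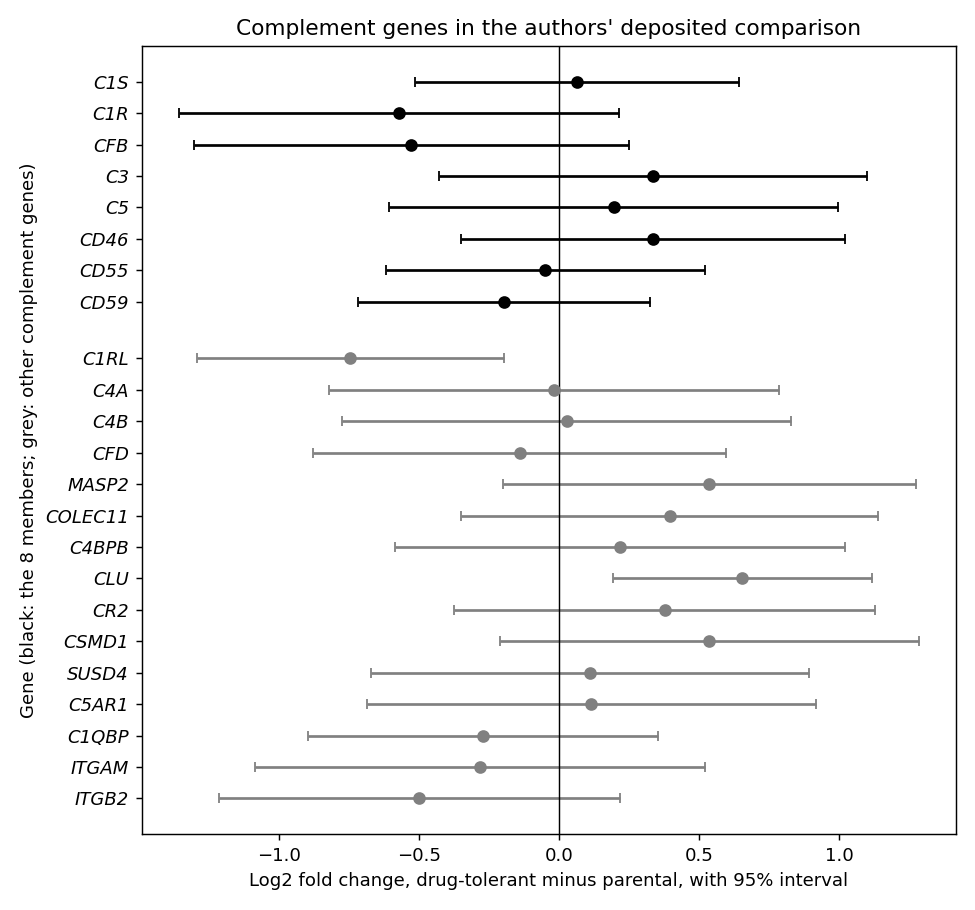
Log2 fold change (drug-tolerant minus parental, moderated towards 0) of the 8 members in black and of other complement genes with an adjusted p in grey, from the authors' deposited table. Bars are 95% intervals from the deposited standard errors, and every member's bar crosses 0, while those of C1RL and CLU do not before adjustment for multiple tests.

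These libraries could call only large changes of the members. The smallest Wald score among called genes was 3.64 in size in the authors' deposited table. At that score a member would have needed a deposited log2 fold change of 0.97 (CD59) to 1.49 (C5) with its deposited standard error. For C3 it was 1.42 and for CD46 1.27. These values are on the deposited scale, which is moderated towards 0. On it C1R was at -0.57, while the log2 ratio of its recovered levels, described below, was -0.98. The unmoderated change that a call would have needed was not worked out. Values that miss the threshold therefore do not show that the levels were alike in both groups.

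Among the 8 members, C3 had the standard error that stood highest for its level. In the authors' deposited table its standard error of 0.39 was larger than that of 96.5% of the 833 tested genes within 2 times its mean level. CD46, with a standard error of 0.35 in the authors' deposited table, exceeded 87.0% of 998 such genes. CD59, at nearly the same mean level as C3 (6125 against 6133), exceeded 48.3% of 838, and CD55 exceeded 61.1% of 3891. C1S lay among the more precise genes at its level, with 29.7% of 2845 having a smaller standard error. The place of C3 was not particular to it among the genes listed here. REL, of the inducer list, exceeded 99.9% of 3898 genes around its level. PGAP1, of the GPI anchor list, exceeded 98.2% of 3717. A deposited standard error rises with the spread between libraries of a group, but no value per library could be solved for C3, so which libraries differ is not known.

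**Figure D3:**
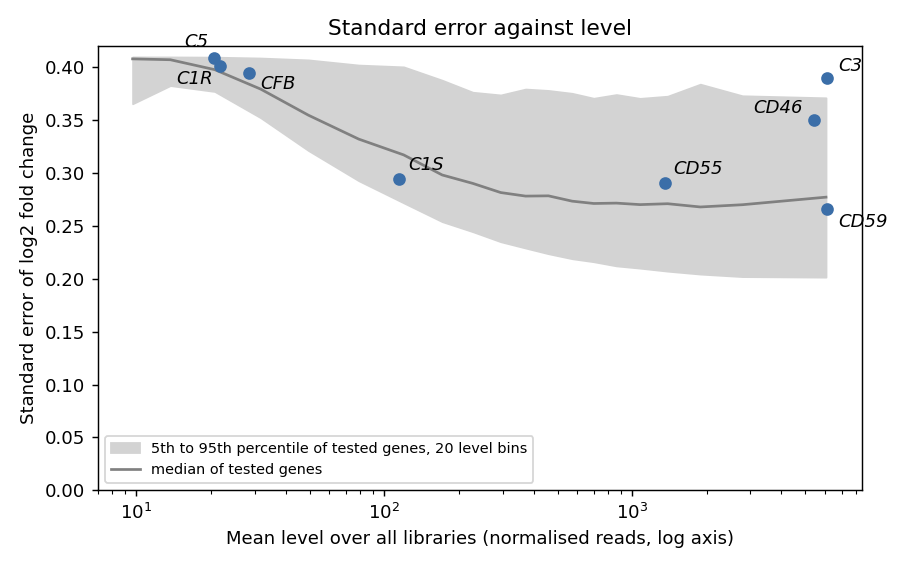
Standard error of the log2 fold change against mean level (normalised reads, log axis) for the 8 members (points), with the median (line) and the 5th to 95th percentile (band) of all tested genes in 20 bins of level. C3, at 0.39, lies above the band, and CD59 at the same level (0.27) lies near the median.

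For C1R the recovered values were lower in both drug-tolerant libraries. Reads divided by the library's size factor were 37.8, 23.6 and 19.8 in parental a, b and c, against 18.5 and 8.87 in the drug-tolerant libraries a and b, from 45, 24, 19, 21 and 7 reads. The groups did not overlap, but drug-tolerant a (18.5) lay just under parental c (19.8), and their 95% Poisson intervals, 11.5 to 28.3 and 11.9 to 30.9, overlapped almost wholly. The means were 27.0 ± 9.48 (SD, n = 3) and 13.7 ± 6.82 (SD, n = 2), a ratio of 0.506 that became 0.328 without drug-tolerant a and 0.632 without parental a, and 0.461 with parental b and c as 1 sample. Among the 1902 genes with a mean level of 10 to 30 and recovered reads, 15.8% also had every drug-tolerant library under every parental one, so such an order was common. The deposited fold of C1R, 0.673, is nearer to 1 than the ratio of 0.506, and the fold changes of the authors' deposited table are moderated towards 0.

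CFB, the alternative pathway protease, was highest in parental a. Its recovered levels were 52.0, 23.6 and 28.1 in parental a, b and c, against 15.0 and 24.1 in the drug-tolerant libraries. The groups overlapped, since drug-tolerant b lay above parental b. The means were 34.6 ± 15.3 (SD, n = 3) and 19.5 ± 6.43 (SD, n = 2), a ratio of 0.565 that became 0.756 without parental a and 0.502 with parental b and c as 1 sample. Parental a alone, with an interval of 39.9 to 66.7, lay above the interval of every other library except parental c, whose interval reached 40.9.

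C5 divided the parental libraries. Its recovered levels were 36.9 in parental a, 6.88 in parental b and 10.4 in parental c, against 31.7 and 16.5 in the drug-tolerant libraries a and b, from 44, 7, 10, 36 and 13 reads. Parental a and drug-tolerant a were high and parental b and c were low, and the 95% Poisson intervals of parental a (26.8 to 49.6) and parental b (2.77 to 14.2) did not overlap. Parental a stood 4.27 times above the mean of parental b and c for C5, against 2.01 times for CFB and 1.74 times for C1R. The group means of C5 were 18.1 ± 16.4 (SD, n = 3) and 24.1 ± 10.8 (SD, n = 2). Their ratio of 1.33 became 2.79 without parental a and 0.912 without drug-tolerant a, and was 1.06 with parental b and c as 1 sample, so its size and its direction rested on single libraries. The longest protein-coding transcript of C5 has 5465 nucleotides, against 2660 for C1R and 2862 for CFB, and the order of the libraries for C5 resembles that of the ratio of long to short transcripts given above. The part of transcript length in the C5 values was not tested.

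**Figure D4:**
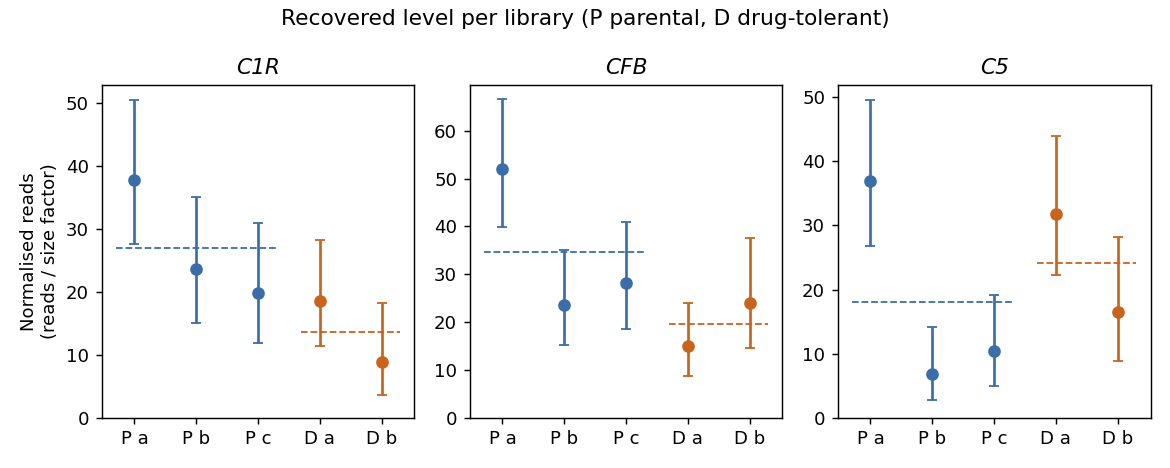
Recovered reads divided by size factor for C1R, CFB and C5 in parental (P, blue) and drug-tolerant (D, orange) libraries, with 95% Poisson intervals (counting error only) and group means as dashed lines. C1R is lower in both drug-tolerant libraries (18.5 and 8.87), CFB overlaps between groups, and C5 is high in parental a (36.9) and low in parental b and c.

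Removing the trend of the deposited fold change with transcript length and GC content moved CD59 most among the members. With a transcript of 7631 nucleotides, CD59 went from -0.20 in the authors' deposited table to -0.44. Its adjusted p was 0.68, from the trend-removed value divided by the deposited standard error. C3 went from 0.33 in the authors' deposited table to 0.20 and C5 from 0.19 to 0.07, while CD46 stayed near its value at 0.36 and C1R at -0.50. CD55 went from -0.05 in the authors' deposited table to 0.016, a change of sign at a value near 0. None of the 8 passed the threshold after this step.

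In the rest of the complement system the authors' deposited table (DESeq2) called 0 genes. Of 15 other components 7 had a row and 4 an adjusted p, with 1 at an unadjusted p under 0.05. This was C1RL, the C1R-like protease gene, at -0.75 ± 0.28, with an adjusted p of 0.30 by the authors' deposited table. It overlaps C1R by 3021 bases on the same strand. The mean level was 430 for C1RL and 21.7 for C1R, and whether reads were shared was not tested. The others with an adjusted p were CFD, the protease that activates factor B (-0.14 ± 0.38), and the near-identical pair C4A (-0.02 ± 0.41) and C4B (0.03 ± 0.41) in the authors' deposited table, which can share reads. With the trend in length and GC content taken out, CFD was at 0.11 and C4B at -0.11, both with a change of sign, and C4A at -0.16. The list median was -0.08, against -0.018 over all tested genes. The genes C1QA, C1QB and C1QC of the recognition subunit of C1, and C6, C7, C8A, C8B and C9 of the membrane attack complex had no row, and C2 had a mean level of 1.45 in the authors' deposited table and no adjusted p.

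Of 9 lectin pathway genes 4 had a row and 2 an adjusted p. These were the protease gene MASP2 (0.54 ± 0.38) and the collectin gene COLEC11 (0.39 ± 0.38) in the authors' deposited table, not called. The recovered levels of MASP2 were 14.3, 2.95 and 0 in parental a, b and c, against 17.6 and 21.6 in the drug-tolerant libraries. Both drug-tolerant libraries lay above every parental one, as in 15.0% of the 1902 genes of that range, and parental a lay close to them.

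Of 13 soluble regulators 8 had a row and 2 an adjusted p. CLU, which encodes clusterin, an inhibitor of the membrane attack complex, was at 0.65 ± 0.24, with an unadjusted p of 0.0055 and an adjusted p of 0.27 (DESeq2), at a mean level of 762 by the authors' deposited table. SERPING1, which encodes the inhibitor of C1R and C1S, had no adjusted p, and the authors' deposited table puts its mean level at 2.31. The genes SERPING1 and VTN, which encodes vitronectin, were picked for description after their values were seen. VTN had recovered levels of 10.9, 0 and 1.04 in parental a, b and c, against 10.6 and 11.4 in the drug-tolerant libraries. SERPING1 had 4, 0 and 0 reads in the parental libraries and 5 and 3 in the drug-tolerant ones. Both genes had their lowest levels in parental b and c. The same order held for 38.6% of the 3656 genes with a mean level of 5 to 30, the range of VTN. SERPING1 lies under that range, so its order is no result about this gene. C4BPB, of the same list, did not share this order, as its level was 10.1 for parental a but 10.4 for parental c.

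Of 16 other membrane regulators and receptors 13 had a row and 7 an adjusted p, with 0 called. Their median was 0.11, against -0.018 over all tested genes. CSMD1 (0.54 ± 0.38), the integrin chain ITGB2 (-0.50 ± 0.37), the complement receptor CR2 (0.38 ± 0.38) and C1QBP (-0.27 ± 0.32) had the smallest adjusted p of this list in the authors' deposited table, from 0.53 to 0.68. With the trend in length and GC content taken out, CSMD1 went to 0.11 and C1QBP to -0.018. ITGAX, an integrin chain of a complement receptor, had recovered levels of 11.8, 6.88 and 8.33 in the parental libraries and 5.29 and 5.07 in the drug-tolerant ones. These groups did not overlap, but at 4 to 14 reads per library the 95% Poisson intervals did. The share of all genes with such an order was worked out only for means of 10 to 30. ITGAX, with a mean level of 7.46, lies under that range, so its order is no result about this gene. C5AR1, the receptor for the C5a fragment of C5, had a mean level of 8.69 in the authors' deposited table and recovered levels of 10.1, 4.91 and 9.37 in parental a, b and c, against 11.5 and 7.61 in the drug-tolerant libraries. Its groups overlapped.

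**Figure D5:**
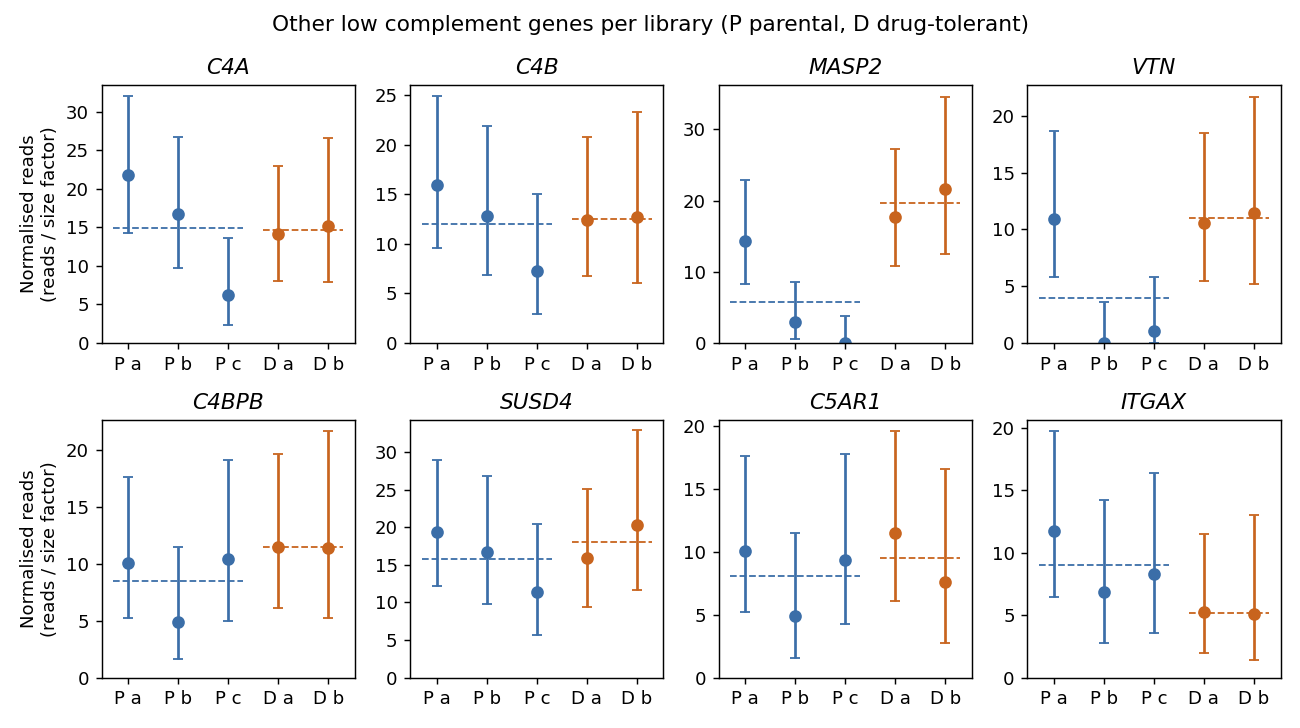
Recovered reads divided by size factor for 8 other complement genes with a mean level of 5 to 30, in parental (P, blue) and drug-tolerant (D, orange) libraries, with 95% Poisson intervals (counting error only) and group means as dashed lines. MASP2 and VTN are lower in parental b and c than in the other 3 libraries. C4A, C4B, SUSD4 and C5AR1 overlap between groups, both drug-tolerant values of C4BPB (11.5 and 11.4) lie above the parental ones, and both of ITGAX (5.29 and 5.07) lie under them. The share of all genes with such an order was not worked out at the mean levels of C4BPB (9.65) and ITGAX (7.46).

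The low level of C5 in parental b and c was also common among other genes. Of the 11 members and other complement genes with a mean level of 5 to 30 and recovered reads, 3 (C5, MASP2 and VTN) had their lowest values in parental b and c. This is 27.3% of them, C5 included, against 38.6% of all 3656 genes in that range, so the count is no result about complement genes.

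CD55 and CD59 reach the surface only with a GPI anchor, and the genes of anchor synthesis and remodelling were all measured but 1. Of 25, 24 had an adjusted p and the authors' deposited table (DESeq2) called 0, with 10 positive and 14 negative values. The median was -0.10, against -0.018 over all tested genes. At an unadjusted p under 0.05 there were 2. The smallest adjusted p belonged to PIGC (-0.64 ± 0.31), PGAP2 (-0.57 ± 0.29), PIGP (-0.65 ± 0.35) and PIGK, a subunit of the transamidase that attaches the anchor (0.34 ± 0.21), in the authors' deposited table, from 0.45 to 0.51.

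Genes of the pathways known to induce epithelial complement genes were all in the table, 20 of 20, and 0 were called by DESeq2. They encode cytokine receptors, the kinases JAK1 and JAK2, transcription factors and, with NFKBIA, an inhibitor of NF-kB. The signs below therefore do not all point to the same effect on these pathways. The median of the 20 was 0.20, with 13 positive and 7 negative values. Over all tested genes the median was -0.018, with 7372 positive and 7851 negative values. Of the 20, 1 had an unadjusted p under 0.05. That was RELB, an NF-kB subunit, at -0.57 ± 0.29, with an adjusted p of 0.46 by the authors' deposited table. IL1R1 (0.48 ± 0.30) and IRF1 (-0.43 ± 0.25) were also not called in the authors' deposited table. With the trend in length and GC content taken out, RELB was at -0.45, IL1R1 at 0.37 and IRF1 at -0.44. The part of transcript length in the list median was not tested.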

How the data were processed

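Poly(A) RNA was isolated with TriZol and made into stranded libraries, per the labels' protocols. FastQC, STAR, DESeq2 and hg38 were used, per the submitters' processing notes. Versions, annotation and read counter: not given in the sources used here. As mean level the authors deposited a signal, namely the mean over libraries of reads divided by size factors. Fold changes, with standard errors, were deposited on the log2 scale by the authors and are moderated towards 0: for the 996 genes read in no parental library, the highest was 0.78. The deposited Wald score is their ratio, and p-values with their adjusted values were deposited by the authors. The edgeR test planned for counts was not run, because it needs values for each library.

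Each mean level is the sum, over 5 libraries, of whole reads multiplied by that library's step. Steps came from the lowest means and were refined by least squares on 3177 genes. All whole-number solutions within 1e-09 (means under 10) or 7e-09 (10 to 30) were listed. A gene was used where 1 remained, which held for 14607 of 14822 genes. Only 1902 of the 14607 had a mean of 10 to 30, the range of C1R, CFB and C5. The share with a single solution in that range was not worked out. CFD, COLEC11 and ITGAM, with mean levels of 28.8, 27.5 and 25.9, had 2 solutions each. The true reads solve the equation up to rounding and the error of the fitted steps, so a single solution was taken as theirs. With a tolerance 10 times wider C1R had 5 solutions, CFB 10 and C5 2, so a wrong single solution is not excluded. The procedure was also run on simulated reads with other size factors. Its outcome there is not given, so that run is no support for the solutions of C1R, CFB and C5. Poisson intervals (95%) cover counting error only. Lengths (longest protein-coding transcript) and positions came from GENCODE 29. The trend was a cubic in log2 length and a quadratic in GC content, fitted by least squares, and 99.6% of tested genes had a length. Python 3.11.15, numpy 2.4.6, scipy 1.17.1 and statsmodels 0.14.6 were used.

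Named were the members, and from each list every called gene and up to 4 genes of mean level 10 or more that had the lowest adjusted p; C5AR1, ITGAX, C2, VTN and SERPING1 and the other genes plotted per library lie outside this rule and were chosen after their values were seen. The members and lists were chosen with earlier results of these data known. A gene that the rule names is not reported here, though counts include it.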

Additional observations from a re-analysis of the deposited data

How the results depend on the processing

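The count of 0 called members, in either direction, was the same with adjustment over genes with a mean level of at least 50 (5 members left), with no filter on low counts, at a threshold of 0.01, after centring the Wald score and dividing it by its robust SD, and after removal of the trend with length and GC content. The count was also 0 for each of the 6 lists at these settings. A threshold of 0.01 could not add calls, and the adjusted p of every member rose with no filter and after scaling. There the unchanged count is not a test of the result. The filter at 50 left out C1R, CFB and C5, and the smallest adjusted p of the members left was 0.60 (CD46, deposited p-values). After removal of the trend the smallest of the members was 0.68 (CD59). Over all genes, 40 were called higher as deposited, 25 at the threshold of 0.01 and 1 after scaling. Lower were 44 as deposited, 26 with no filter, 14 at 0.01, 0 after scaling and 27 after removal of the trend. CD55 changed sign after that removal (0.016). With a tolerance 10 times wider, 0 of the 3 members kept a single solution. Leaving out 1 library at a time, chosen after seeing the data, the log2 ratio of recovered levels ran from -1.61 to -0.55 for C1R, from -1.21 to -0.40 for CFB and from -0.13 to 1.48 for C5. With parental b and c counted as 1 sample, also chosen after seeing the data, it was -1.12 for C1R and 0.08 for C5, and kept its sign for CFB. A wider search range was not run, since every possible number of reads was already searched. Refits without a replicate, or with another tool or normalization, were not run. No paired analysis was possible because the columns hold no values per library and the recovered libraries carry no replicate number. Depth limits C1R, CFB and C5, with 7 to 62 reads per library.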
